A study of Mus musculus with 6 samples.

Results

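The DNA replication and S-phase genes described here are 43 genes that were chosen by name from a list, and all 43 were measured, among 16472 genes tested and 27573 gene names on the array. They encode the proteins that mark replication origins, unwind and copy DNA, join the new strands, supply deoxynucleotides, start S phase and rebuild chromatin behind the fork. The array names 37 of them as listed and 6 by an older name, and these 6 (Orc1, Orc2, Orc6, Cdc45, Rfc1 and Gins2) were matched through RefSeq accessions or synonyms.

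RNA came from primary keratinocytes of newborn wild type mouse epidermis, cultured and infected with an adenovirus that carries v-ras-Ha, a viral form of the Ras oncogene, at 10 viral particles per cell. All 6 cultures carried it. The PBS group comprised 3 cultures given PBS, a buffered salt solution. The Anakinra group comprised 3 cultures given 5 ug/ml of Anakinra, a recombinant form of the natural antagonist of the interleukin-1 receptor, from 5 hours after transduction. Culture went on for 3 further days, and fresh antagonist was given after 2 of them. The title of the series poses the question of what Ras-expressing keratinocytes do through the interleukin-1 they themselves release, and the comparison here asks what the replication genes read when its receptor was blocked. Every array therefore carries Ras and viral infection, and the isolation also yielded hair follicle buds. Nothing in the labels tells whether the 3 cultures of a group derive from different animals or preparations, so p-values here measure only the spread between these samples.

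In late mitosis and G1 the origin recognition complex, with Cdc6 and Cdt1, loads the ring of Mcm2 to Mcm7 proteins on DNA, a step called licensing. In S phase, Mcm10, Cdc45 and the GINS complex turn the loaded rings into active helicases, primase and polymerase alpha start each strand, and polymerases delta and epsilon extend it on the sliding clamp Pcna. Many of these genes are transcribed under E2F transcription factors, which are released from retinoblastoma proteins as cells pass from G1 into S. In epidermis the basal keratinocytes replicate their DNA, whereas suprabasal keratinocytes leave the cell cycle as they differentiate.

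Because E2F factors are known to bind promoters of this class, upstream sequence of 4 members is shown: Orc1, the 1 member that passed the test, Mcm6 and Mcm5, which hold overlapping motifs, and Cdc6, which holds a different spelling. The sequences are from RefSeq, assembly GRCm38.p6, written 5′ to 3′ on the gene's own strand and ending before the transcription start. Capitals mark an E2F-type motif of 8 bases, searched as TTTGGCGC, TTTCGCGC, TTTCCCGC or TTTGCCGC on both strands. Overlapping matches run together as 1 block of capitals. The Orc1 stretch is chr4:108579374-108579453 on the plus strand, the Mcm6 stretch chr1:128359741-128359825 on the minus strand, the Mcm5 stretch chr8:75109346-75109425 on the plus strand and the Cdc6 stretch chr11:98908003-98908082 on the plus strand.
Orc1: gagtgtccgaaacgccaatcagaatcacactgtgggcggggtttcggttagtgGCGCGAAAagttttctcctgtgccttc
Mcm6: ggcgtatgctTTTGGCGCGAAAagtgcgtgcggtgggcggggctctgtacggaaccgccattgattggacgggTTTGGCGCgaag
Mcm5: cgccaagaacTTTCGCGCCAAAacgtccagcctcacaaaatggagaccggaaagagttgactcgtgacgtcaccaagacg
Cdc6: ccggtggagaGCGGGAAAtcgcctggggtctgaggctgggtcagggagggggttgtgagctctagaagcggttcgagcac

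The motif was present in the window from 250 bases before to 50 bases after a start site for 13 of the 35 members with a promoter in the RefSeq table (37.1%). Among all 27025 genes of that table, 704 (2.60%) held it. The 13 members were Orc1, Cdc6, Cdt1, Mcm3, Mcm5, Mcm6, Mcm7, Pola1, Pold1, Rfc3, Lig1, E2f2 and Uhrf1. A match is a run of letters and no evidence of binding. Gmnn, Mcm4, Gins1, Gins2, Prim2, Pole, Rfc2 and Ccne2 were not in the table.

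Values are scaled log2 signals: the processed spot intensity was divided by the 75th percentile of its own array and put on a log2 scale, so that a value of 0 equals that percentile and a difference of 1 is a doubling. Levels of different genes come from different probes and are not compared with each other. The 75th percentile was 824 to 958 intensity units in PBS and 969 to 1041 in Anakinra, no spot was saturated, and all 43 members were well above background on all 6 arrays. PBS arrays correlated with each other at 0.995 to 0.997 over the genes tested and Anakinra arrays at 0.957 to 0.983. Anakinra 2 stands apart: 86.2% of its probes were well above background, against 55.2% to 70.5% on the other 5 arrays, so results are also given without it. The arrays lay on 2 slides, each scanned once, slide 1 with PBS 2, PBS 3 and Anakinra 1 and slide 2 with PBS 1, Anakinra 2 and Anakinra 3. Across all genes, 155 were higher and 138 lower in Anakinra by limma at an adjusted p under 0.05, 1.78% of those tested. Leaving out PBS 1, 2 or 3 left 23, 4 or 54 calls, and leaving out Anakinra 1, 2 or 3 left 84, 256 or 137.

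Most replication genes had a lower mean signal in the Anakinra cultures, by small amounts, and 1 of 43 passed the test. The mean of 39 of the 43 was lower in Anakinra, against 49.5% of all genes tested, and their median log2 difference was -0.20 (quartiles -0.29 and -0.14), against 0.00 for all genes (quartiles -0.14 and 0.18). In 28 members (65.1%) all 3 Anakinra arrays lay below all 3 PBS arrays, a pattern found in 15.2% of all genes. In 1 member, E2f2, all 3 Anakinra arrays lay above the PBS arrays (11.6% of all genes), and in 14 members the groups overlapped. Groups were separate one way or the other in 26.8% of all genes. Only Orc1, the largest subunit of the origin recognition complex, passed the test across all genes. It was called lower, the direction called in 0.838% of the genes tested. No member was called higher, against 0.941% of all genes, and the other 42 members did not pass. At an unadjusted limma p under 0.05 there were 22 lower members and 1 higher, against 8.71% and 7.87% of all genes. The shared direction is a description of the list and carries no test.

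**Figure D1:**
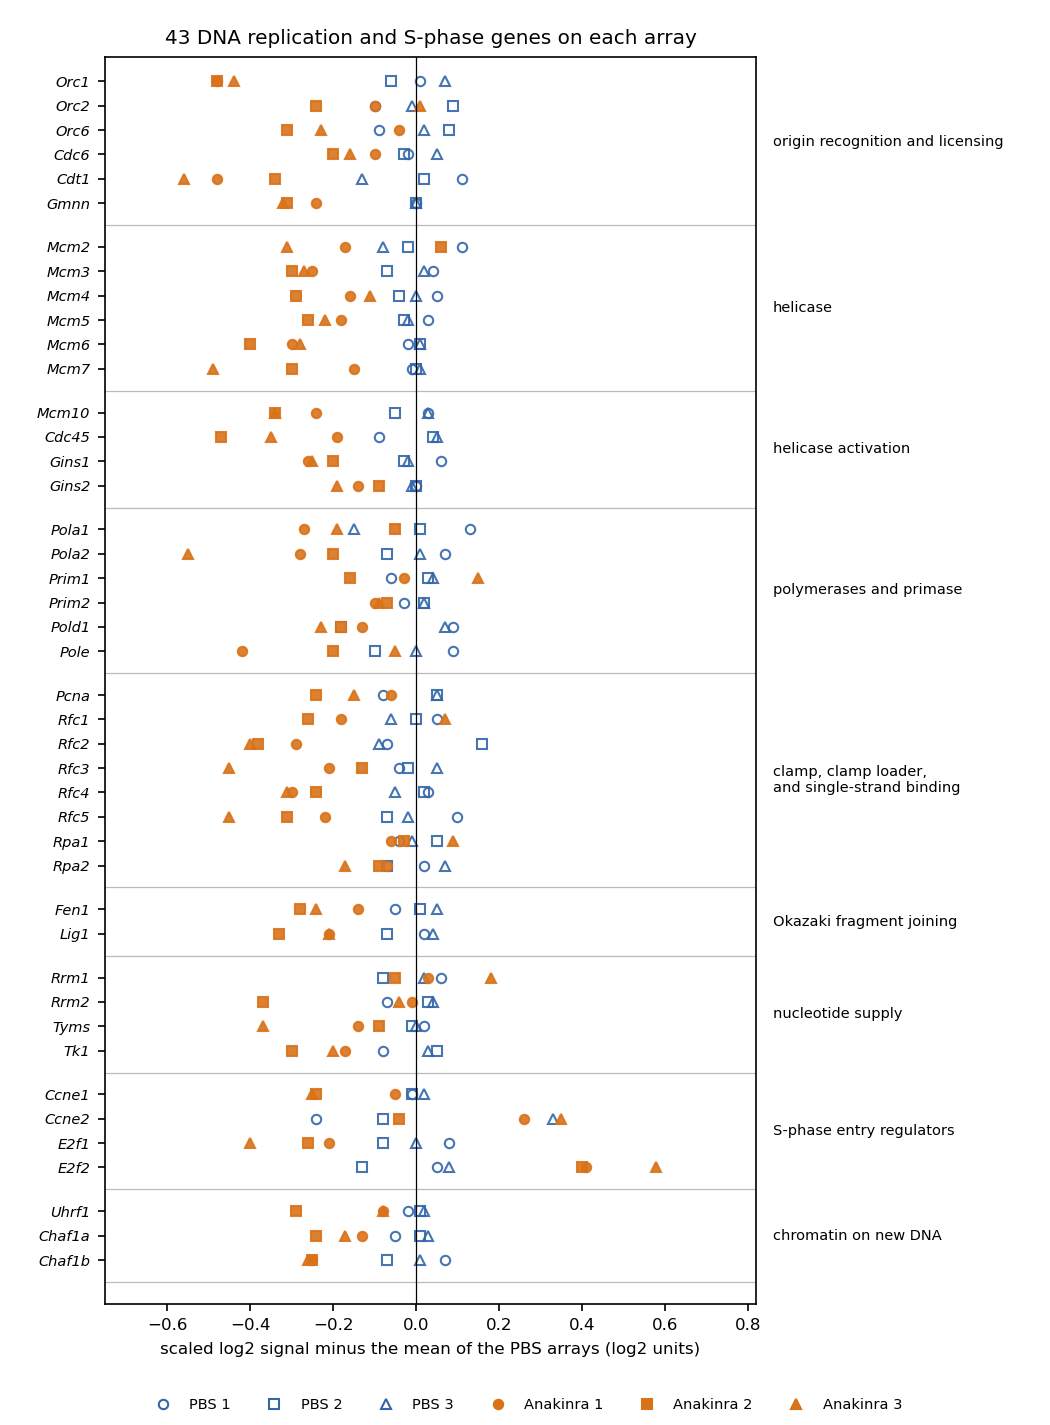
Scaled log2 signal of each of the 43 members on each array, minus the mean of the 3 PBS arrays, in log2 units, ordered by role (open blue symbols PBS, filled orange symbols Anakinra). Filled symbols lie to the left of open ones in 28 members and to the right in E2f2.

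The spread over arrays shows the same pattern from the side of the samples. After each member was centred on its mean over the 6 arrays, the median member stood at 0.11, 0.08 and 0.11 in PBS and at -0.06, -0.14 and -0.12 in Anakinra. All 3 PBS arrays were above all 3 Anakinra arrays in this median, and Anakinra 1 was the closest to PBS. The same medians over all genes ran from -0.07 to 0.06, with Anakinra 2 the highest. Without Anakinra 2, 38 members had a lower mean, 30 lay wholly below PBS and the median difference was -0.20. All genes tested had a median of -0.08 without that array and 28.9% lay wholly below PBS, so the distance between members and all genes narrowed from -0.21 to -0.12.

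The members were also set beside genes of like signal. Among the 3395 genes whose mean signal lay between the quartiles of the members (a range chosen after the values were seen), the median log2 difference was -0.05, 62.4% had a lower mean and 25.1% lay wholly below PBS. The members' own median of -0.20 and share of 65.1% are further down than those of genes of like signal. Fewer cells in S phase and less replication-gene RNA per cell cannot be told apart in RNA from whole cultures.

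**Figure D2:**
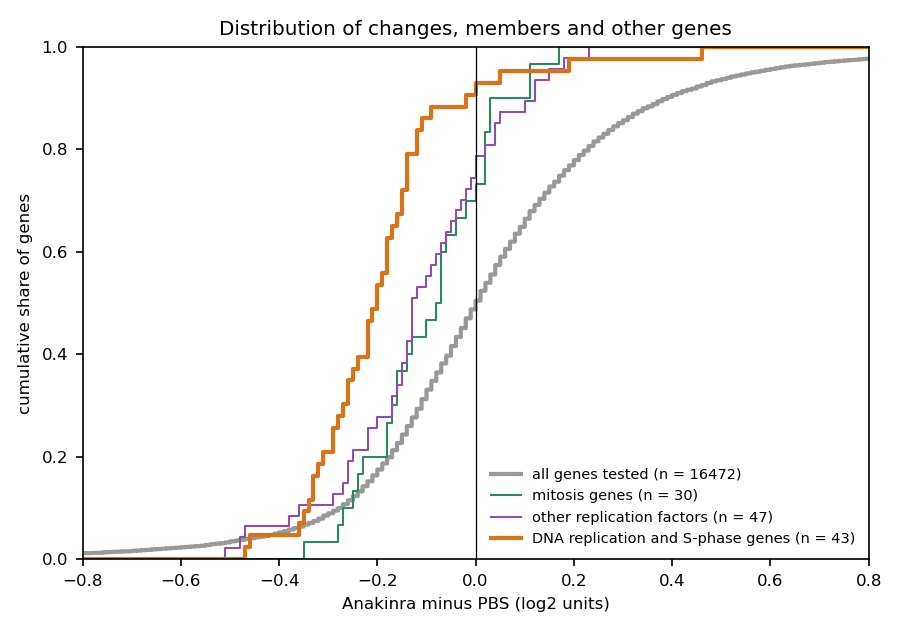
Cumulative share of genes (vertical axis) at or below each log2 difference, Anakinra minus PBS (horizontal axis, log2 units), for the 43 members, 47 other replication factors, 30 mitosis genes and all 16472 genes tested; genes beyond the ends of the axis are counted but not drawn. The curve of the members crosses the middle of the vertical axis at -0.20, to the left of the other replication factors at -0.13, the mitosis genes at -0.08 and all genes at 0.00.

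The origin recognition and licensing genes comprised 6 members, all with a lower mean in Anakinra and 4 with groups that did not overlap (median log2 difference -0.24). For this role and those that follow, the shares of all genes were 49.5% with a lower mean and 15.2% wholly below PBS. Among the genes of like signal these shares were 62.4% and 25.1%. Orc1, which binds origins before the helicase is loaded, read -0.91, -0.98 and -0.85 in PBS and -1.40, -1.40 and -1.36 in Anakinra. The Anakinra arrays lay within 0.04 of one another and all below PBS. Orc1 fell by 0.47 on the log2 scale (SE 0.06, n = 3 per group, 1.39-fold lower; limma, adjusted p = 0.0362), and by 0.48 within slide 1 and 0.47 within slide 2. Its single probe lies at chr4:108110099-108111006 of mm8, the build of the array design, on the plus strand.

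Orc1 was lower in Anakinra under all 18 alternatives tried, with differences from -0.40 on the authors' deposited value table to -0.79 with median scaling, and the call was close to the threshold. It was lost without any one of the arrays: adjusted p was 0.191, 0.214 and 0.186 without PBS 1, 2 or 3 and 0.108, 0.0793 and 0.0806 without Anakinra 1, 2 or 3. With slide as a block it was 0.128, with the authors' values 0.0922, and the range over the alternatives was 0.0187 to 0.876.

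Gmnn encodes geminin, which holds Cdt1 inactive after S phase has begun. Its signal was 3.20 on each PBS array and 2.96, 2.89 and 2.88 on the Anakinra arrays. All Anakinra arrays were below PBS, by a log2 difference of -0.29 (SE 0.06; limma, adjusted p = 0.0908). Cdt1, the loading factor that geminin restrains, read 3.13, 3.04 and 2.89 in PBS and 2.54, 2.68 and 2.46 in Anakinra. Its groups did not overlap either, and its log2 difference of -0.46 (SE 0.10; limma, adjusted p = 0.104) was close in size to that of Orc1 with a wider spread between arrays. Cdc6, the ATPase that works with Cdt1, read 0.09, 0.08 and 0.16 in PBS and 0.01, -0.09 and -0.05 in Anakinra, separate groups with a difference of -0.15 (SE 0.06; limma, adjusted p = 0.325). The groups of Orc2 (-0.11) and Orc6 (-0.20), 2 other subunits of the origin complex, overlapped.

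**Figure D3:**
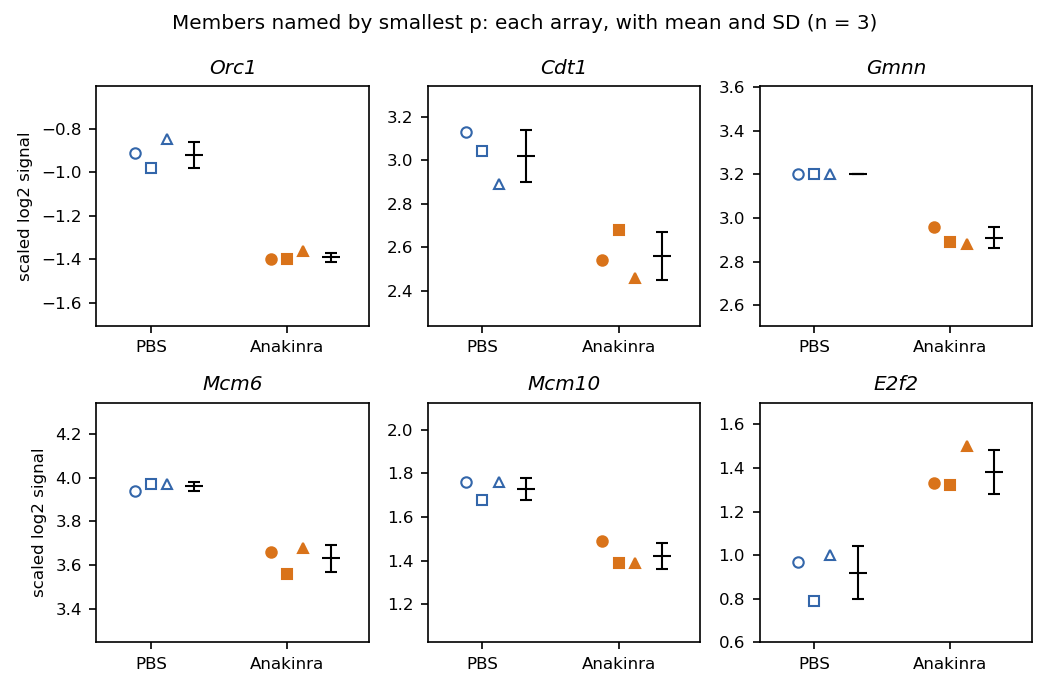
Scaled log2 signal (vertical axis, log2 units) of Orc1, Cdt1, Gmnn, Mcm6, Mcm10 and E2f2 on each of the 3 PBS arrays (open symbols) and 3 Anakinra arrays (filled symbols), with the mean and SD of each group beside the points; every panel spans the same height. Orc1 passed the test, and the other 5 did not although their groups do not overlap.

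All 6 subunits of the Mcm2 to Mcm7 helicase ring had a lower mean in Anakinra, and the groups were separate in 5 of them (median log2 difference -0.24). Mcm6 was the nearest to the threshold, at 3.94, 3.97 and 3.97 in PBS and 3.66, 3.56 and 3.68 in Anakinra. The PBS arrays were nearly equal and all above Anakinra, with a difference of -0.33 (SE 0.06, 1.26-fold lower; limma, adjusted p = 0.0847). Mcm3 read 2.60, 2.49 and 2.58 against 2.31, 2.26 and 2.29, a difference of -0.27 (SE 0.06; limma, adjusted p = 0.120). Mcm5 read 2.89, 2.83 and 2.84 in PBS and 2.68, 2.60 and 2.64 in Anakinra, a difference of -0.21 (SE 0.06; limma, adjusted p = 0.171). Both were low on all 3 Anakinra arrays by similar amounts. Mcm7 read 4.67, 4.68 and 4.69 in PBS and 4.53, 4.38 and 4.19 in Anakinra. All 3 PBS arrays were higher, while the Anakinra arrays of Mcm7 were spread (difference -0.32, SE 0.10; limma, adjusted p = 0.221). Mcm4 was separate as well (-0.19), and Mcm2 (-0.14) overlapped, with Anakinra 2, at 0.74, lying among the PBS arrays, at 0.60 to 0.79.

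Helicase activation was the role with the lowest median, -0.27, and the groups did not overlap in any of its 4 members. Mcm10, needed for origin firing, read 1.76, 1.68 and 1.76 in PBS and 1.49, 1.39 and 1.39 in Anakinra. All Anakinra arrays were lower, with a difference of -0.31 (SE 0.06; limma, adjusted p = 0.0994). Cdc45, a permanent part of the moving helicase, read 0.87, 1.0 and 1.01 in PBS and 0.77, 0.49 and 0.61 in Anakinra, a difference of -0.34 (SE 0.10; limma, adjusted p = 0.183). Anakinra 1 came within 0.10 of the lowest PBS array for Cdc45. Gins1, a GINS subunit, read 1.83, 1.74 and 1.75 against 1.51, 1.57 and 1.52 (-0.24, SE 0.06; limma, adjusted p = 0.154), and Gins2 read 1.71, 1.71 and 1.70 against 1.57, 1.62 and 1.52 (-0.14, SE 0.06; limma, adjusted p = 0.342). Gins2 had the smallest difference of the role with tight PBS arrays.

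Polymerase and primase genes had lower means in all 6 members, and only Pola2 and Prim2 were separate (median -0.18). That share of 33.3% is near the 25.1% of genes of like signal that lay wholly below PBS. Pola2, the regulatory subunit of polymerase alpha, read 0.59, 0.45 and 0.53 in PBS and 0.24, 0.32 and -0.03 in Anakinra. It was lowest on Anakinra 3 and its difference was -0.35 (SE 0.11; limma, adjusted p = 0.223). Pole, the catalytic subunit of polymerase epsilon, read 1.07, 0.88 and 0.98 in PBS and 0.56, 0.78 and 0.93 in Anakinra (-0.22, SE 0.12; limma, adjusted p = 0.422). Pold1, that of polymerase delta, read 2.11, 1.84 and 2.09 against 1.89, 1.84 and 1.79 (-0.18, SE 0.10; limma, adjusted p = 0.429). Pola1, that of polymerase alpha, read -0.30, -0.42 and -0.58 against -0.70, -0.48 and -0.62 (-0.17, SE 0.10; limma, adjusted p = 0.482). In these 3 catalytic subunits 1 or more Anakinra arrays reached the PBS range. The primase subunits stood at the small end, Prim2 at -0.09 and Prim1 at -0.02, with Prim1 within its SE of 0.10 from 0.

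Among the 8 genes of the clamp, the clamp loader and the single-strand binding protein, 7 had a lower mean and 4 were separate, all of them small subunits of replication factor C, which opens the clamp and loads it on DNA. Rfc4 read 1.52, 1.51 and 1.44 in PBS and 1.19, 1.25 and 1.18 in Anakinra (-0.28, SE 0.06; limma, adjusted p = 0.108). Rfc2 read 3.58, 3.81 and 3.56 against 3.36, 3.27 and 3.25 (-0.36, SE 0.09; limma, adjusted p = 0.154). Both were low on each Anakinra array, and Rfc2 was high on PBS 2. Rfc5 read 3.26, 3.09 and 3.14 in PBS and 2.94, 2.85 and 2.71 in Anakinra (-0.33, SE 0.09; limma, adjusted p = 0.166). Rfc3 read 1.15, 1.17 and 1.24 in PBS and 0.98, 1.06 and 0.74 in Anakinra (-0.26, SE 0.10; limma, adjusted p = 0.298). Anakinra 3 was the lowest array for both. The large subunit Rfc1 overlapped (-0.12), as did the clamp Pcna (-0.16) and the single-strand binding subunits Rpa2 (-0.12) and Rpa1 (0.00, 95% confidence interval -0.18 to 0.18).

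Fen1, the nuclease that trims the flaps of Okazaki fragments, read 2.95, 3.01 and 3.05 in PBS and 2.86, 2.72 and 2.76 in Anakinra (-0.22, SE 0.07; limma, adjusted p = 0.221). Lig1, the ligase that seals them, read 2.35, 2.26 and 2.37 in PBS and 2.12, 2.00 and 2.12 in Anakinra (-0.25, SE 0.07; limma, adjusted p = 0.171). Both were lower on every Anakinra array than on any PBS array.

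Of the 4 nucleotide supply genes, Tk1 and Tyms were separate and lower, and the ribonucleotide reductase pair was not. Tk1, the thymidine kinase of the salvage route, read 3.82, 3.95 and 3.93 in PBS and 3.73, 3.60 and 3.70 in Anakinra (-0.22, SE 0.07; limma, adjusted p = 0.223). Tyms, which makes thymidylate, read 3.69, 3.66 and 3.67 in PBS and 3.53, 3.58 and 3.30 in Anakinra (-0.20, SE 0.09; limma, adjusted p = 0.357). The 3 PBS arrays of Tyms were nearly equal, and Anakinra 3 was its lowest. Rrm2, the small subunit of ribonucleotide reductase, read 3.34, 3.44 and 3.45 against 3.40, 3.04 and 3.37, so that only Anakinra 2 stood well below PBS (-0.14, SE 0.12; limma, adjusted p = 0.634). Rrm1, the large subunit, read 3.57, 3.43 and 3.53 against 3.54, 3.46 and 3.69, with mixed arrays and a difference of 0.05 (95% confidence interval -0.17 to 0.27).

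The S-phase entry regulators were split evenly, with 2 of 4 lower and 2 higher in Anakinra (median 0.00). E2f2, an activator of the E2F family, read 0.97, 0.79 and 1.0 in PBS and 1.33, 1.32 and 1.50 in Anakinra. All 3 Anakinra arrays were higher, by 0.46 (SE 0.09, 1.37-fold higher; limma, adjusted p = 0.0973), and the difference was 0.43 within either slide. E2f1, a close relative, read 0.30, 0.14 and 0.22 in PBS and 0.01, -0.04 and -0.18 in Anakinra, lower on every array (-0.29, SE 0.08; limma, adjusted p = 0.179). E2f1 and E2f2 therefore stood on opposite sides of 0, and neither passed the test. Ccne1, one of the cyclins E that drive Cdk2 at the start of S phase, read 2.89, 2.89 and 2.92 against 2.85, 2.66 and 2.65 (-0.18, SE 0.08; limma, adjusted p = 0.332). Its groups were separate, with Anakinra 1 next to PBS. Ccne2, the other cyclin E, read 0.08, 0.24 and 0.65 in PBS and 0.58, 0.28 and 0.67 in Anakinra, and its arrays were too spread in both groups for a direction (0.19, SE 0.19; limma, adjusted p = 0.690).

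The 3 genes that handle chromatin on new DNA were all separate and lower (median -0.18). Chaf1b, a subunit of chromatin assembly factor 1, which places histones on new DNA, read 3.02, 2.88 and 2.96 in PBS and 2.70, 2.70 and 2.69 in Anakinra (-0.26, SE 0.06; limma, adjusted p = 0.145). Chaf1a, its large subunit, read 1.59, 1.65 and 1.67 against 1.51, 1.40 and 1.47 (-0.18, SE 0.06; limma, adjusted p = 0.266). Uhrf1, which brings the maintenance DNA methyltransferase to new strands, read 2.84, 2.87 and 2.88 against 2.78, 2.57 and 2.78 (-0.15, SE 0.08; limma, adjusted p = 0.424). Chaf1b was the tightest of the 3 within Anakinra, and Uhrf1 was low mainly on Anakinra 2.

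The members were also compared within each slide, where PBS and Anakinra arrays shared a scan. On slide 1 the median member differed by -0.16, against -0.06 for all genes, and on slide 2 by -0.24, against 0.05. The members thus stood closer to all genes on slide 1. On both slides 38 members (88.4%) were lower, against 34.4% of all genes and 49.7% of the genes of like signal. The exceptions were E2f2 and Ccne2, higher on both slides, Rrm1, at 0.05 and 0.00, and Rpa1 and Prim1, whose sign differed between slides. Each of these differences rests on 3 arrays and 1 of them alone forms a group, so no slide gives a test of its own.

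**Figure D4:**
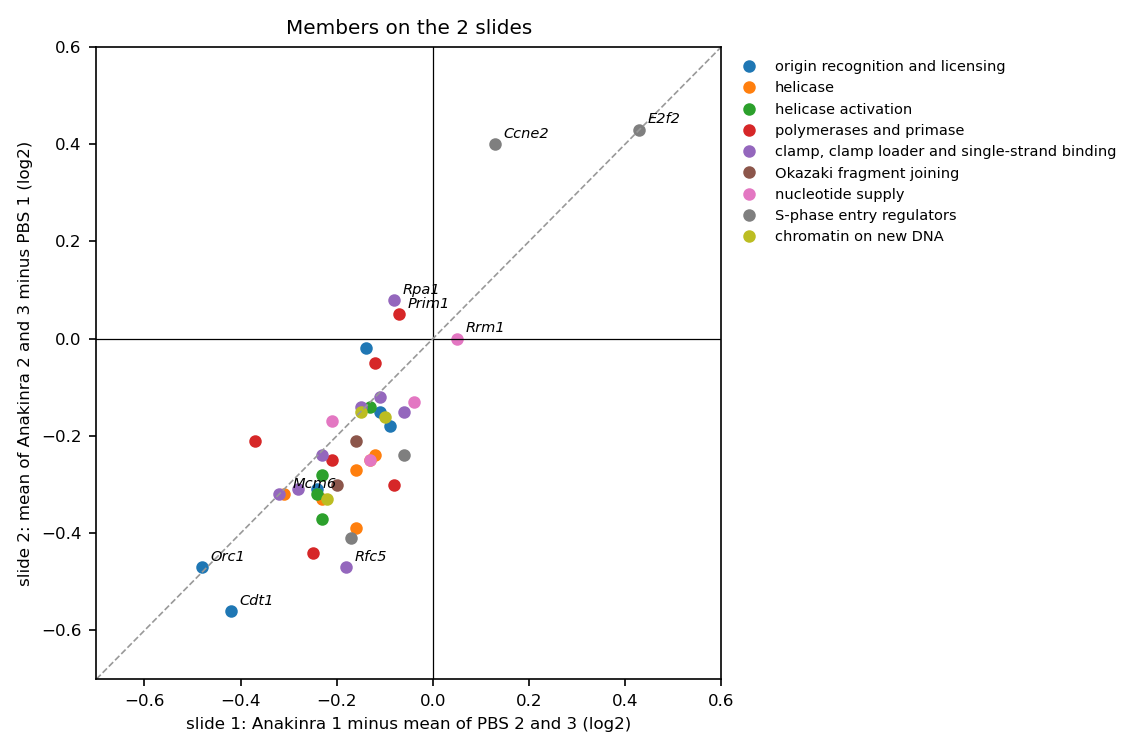
Log2 difference of each member within slide 1 (horizontal axis, Anakinra 1 minus the mean of PBS 2 and 3) and within slide 2 (vertical axis, mean of Anakinra 2 and 3 minus PBS 1), coloured by role, with the line of equality dashed. Most points lie in the lower left, and E2f2 lies at 0.43 on both axes. The members' slide medians were -0.16 and -0.24, against -0.06 and 0.05 for all genes tested.

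The members were also grouped by the motif in the promoter window, as a description without a test. Over all genes tested, 49.5% had a lower mean and 15.2% lay wholly below PBS. Members with the motif had a median log2 difference of -0.25, with 12 of 13 lower and 10 wholly below PBS. Members with a listed promoter and no motif had a median of -0.19, with 20 of 22 lower and 12 wholly below PBS, and members outside the table one of -0.21, with 7 of 8 lower and 6 wholly below PBS. Among those with the motif were both Orc1, at -0.47, and E2f2, at 0.46.

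Other genes of the pathway were counted from 3 further lists, and no gene of them passed the test. Of 47 other replication factors, 37 had a lower mean and 17 lay wholly below PBS (median -0.13), against 49.5% and 15.2% of all genes. The smallest p belonged to Dut, which removes dUTP from the nucleotide pool, at 4.18, 4.14 and 4.08 in PBS and 3.65, 3.78 and 3.57 in Anakinra (-0.47, SE 0.08; limma, adjusted p = 0.0638). Timeless, a fork protection protein, read -0.22, -0.46 and -0.30 against -0.97, -0.70 and -0.83 (-0.51, SE 0.10; limma, adjusted p = 0.0982). Both were low on all 3 Anakinra arrays. Of 29 G1/S regulators tested, 18 were lower (62.1%, median -0.05) and 7 lay wholly below PBS (24.1%). These values are near those of the genes of like signal to the members (62.4%, -0.05 and 25.1%). The smallest p belonged to Cks1b (-0.27, limma, adjusted p = 0.165) and Cdk4 (-0.27, limma, adjusted p = 0.214). Of 30 mitosis genes, 22 were lower (73.3%, median -0.08) and 8 lay wholly below PBS (26.7%, also near the 25.1%). They were led by the kinase Aurkb (-0.35, limma, adjusted p = 0.0994) and Ube2c, which serves the anaphase-promoting complex (-0.27, limma, adjusted p = 0.137).

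Markers of differentiated keratinocytes moved with the treatment. The summed linear signal of 8 suprabasal markers, in units of the 75th percentile, was 116 to 143 in PBS and 204 to 258 in Anakinra. Most of that sum came from Lor, the 1 marker of the 8 not called (log2 difference 0.72, limma, adjusted p = 0.0970). All 8 suprabasal markers lay wholly above PBS, against 11.6% of all genes, and 7 were called higher, against 0.941%. Their median log2 difference was 1.02, and Krt1 (2.34) and Krt10 (2.39), the keratins of the spinous layer, were among those called. The shares of all genes wholly below PBS and called lower were 15.2% and 0.838%. The 8 general and basal keratinocyte markers, which define the labelled cell type, were above background on all arrays, and none was called. Their sums were 1358 to 1524 in PBS and 1330 to 1439 in Anakinra, mostly from Krt5 and Krt14. Fibroblast markers summed to 7.63 to 9.23 in PBS and 9.27 to 10.8 in Anakinra. Of 7 tested, 6 had a higher mean in Anakinra. Lum and Col3a1 were called higher, with PBS means of only -5.22 and -2.57. Pdgfra also lay wholly above PBS (0.63), with a PBS mean of -4.35, and was not called. Dcn lay wholly below PBS (-0.39), and the groups of Col1a1 (0.22) and Col1a2 (0.17) overlapped. Melanocyte markers summed to 60.5 to 70.4 and 71.3 to 75.1 (0 of 8 called). All 8 had a higher mean in Anakinra (median 0.26), and 4 lay wholly above PBS. Hair follicle markers summed to 10.4 to 11.5 and 12.6 to 15.0. Of 5 tested, 3 had a higher mean and 2 a lower one. Krt79 was called higher (0.85), whereas Cd34 lay wholly below PBS (-1.08). Immune markers stood at 1.90 to 2.36 and 1.98 to 2.39 (4 of 7 tested, Ptprc, Cd3e and Itgam did not pass the filter on dim probes) and endothelial markers at 2.10 to 2.23 and 1.69 to 1.99 (3 of 5 tested), with none called. The part of these shifts in the lower replication-gene signal was not tested.

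The scaling alternatives moved the members' median by different amounts. With each array's median in place of its 75th percentile, all genes shifted to a median of -0.32 and the members to -0.52, a distance of -0.21. That distance equals the reported one because this scaling shifts all genes of an array alike. Under that scaling 42 members had a lower mean, but 1 lay wholly below PBS, where 3.72% of all genes did, and E2f2 stayed higher at 0.14 without separate groups. With quantile normalization the members' median was -0.14 and that of all genes -0.02, a distance of -0.12, with 23 members wholly below PBS against 14.1% of all genes.

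**Figure D5:**
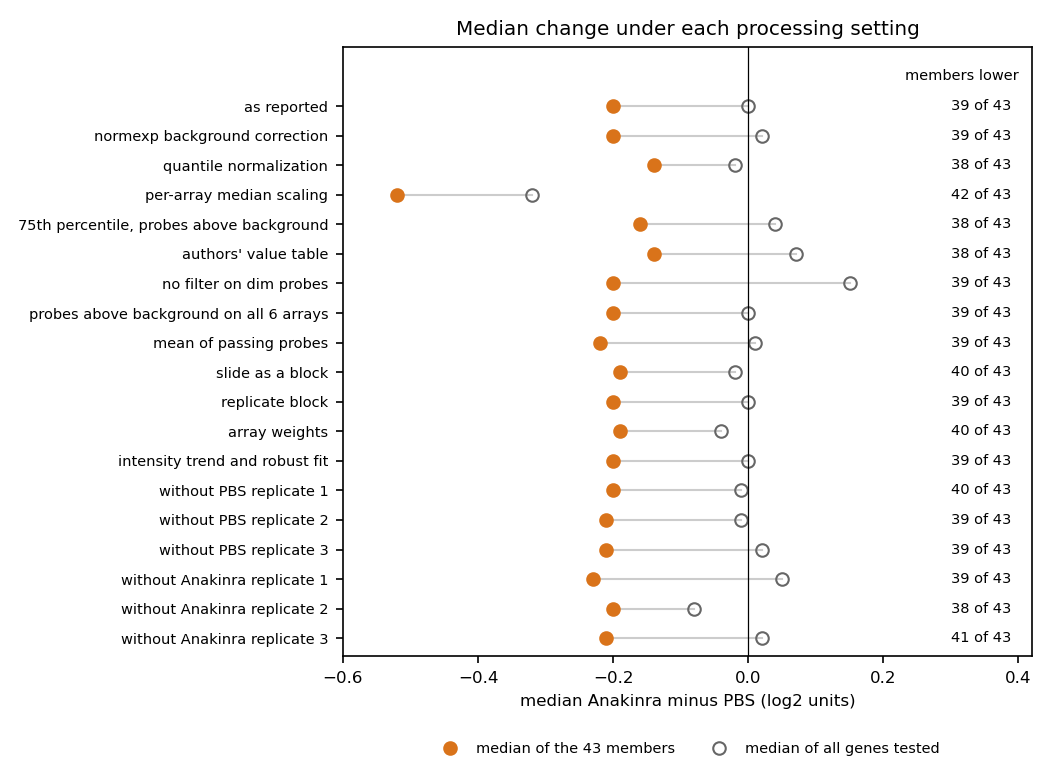
Median log2 difference, Anakinra minus PBS (horizontal axis, log2 units), of the 43 members (filled) and of all genes tested (open) under the reported processing and each of 18 alternatives (vertical axis), with the number of members whose mean was lower. The filled point lies to the left of the open one in each, and between 38 and 42 members were lower. Scalings that shift all genes of an array alike cannot change the distance between the 2 points.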

How the data were processed

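Total RNA of 6 cultures was measured on 6 Agilent 1-colour arrays, 3 per group, labelled with Alexa-555 per the labels. The authors' processed intensity of each spot was background-subtracted by Agilent Feature Extraction 9.5.3.1, per the file headers, and was not normalised between arrays. The authors' deposited table holds log2 values, each equal to the log2 processed intensity plus a constant of its array, to within 0.0005. How these constants were set is not stated by the labels or headers.

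Control and outlier spots were left out and spots of a probe averaged. The log2 intensity was scaled to the 75th percentile of each array. A probe entered if well above background on all arrays of a group, with at least 2 values per group. Each gene took its brightest passing probe. Of 41174 probes, 23374 were named through a RefSeq accession of GRCm38.p6, 6733 through a current symbol, 2919 through a synonym of 1 gene, and 8148 kept the name in the file. Anakinra was compared with PBS by limma 3.58.1 in R 4.3.3 (lmFit and eBayes, two-sided, Benjamini-Hochberg over 16472 genes, adjusted p under 0.05), after the code was tested on simulated data. Promoters and figures used Python 3.11.15. The number of arrays limits the precision.

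The members, lists and tests were chosen with earlier results of these data known. The naming rule took, array by array, every called member and up to 4 members per role with the smallest p. From the other replication factors, G1/S regulators and mitosis genes it took every called gene up to 6, otherwise the 2 with the smallest p. Marker lists are given by counts and sums, and the markers named were chosen after their values were seen. Alternatives covered background correction, scaling, filter, probe choice, slide, replicate number, array weights, variance model and leaving out each array.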

Additional observations from a re-analysis of the deposited data

How the results depend on the processing

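The members' direction was steadier than their calls. The number of members with a lower mean was between 38 and 42 under all 18 alternatives, and their median was negative in each, but the 1 call was not kept in most. Not all alternatives could change the direction. The replicate block, the trend and robust fit and both changes of filter left each member's difference as reported. Median scaling, the percentile of probes above background and the authors' table shift all genes of an array alike. No member was called (0 of 43) with normexp background correction, median scaling, the 75th percentile of probes above background on all arrays, the authors' value table, no filter on dim probes, slide as a block or array weights, nor among the 37 members with the listed name only (0 called, an alternative chosen after seeing the data). With an intensity trend and robust fit 9 members were called: Cdt1, Gmnn, Mcm3, Mcm6, Mcm10, Orc1, Rfc2 and Rfc4 lower and E2f2 higher. Calls rose across all genes under that fit, to 812 of 16472 against 293 as reported. Leaving out any 1 array left 0 members called, and the members' median then ran from -0.23 to -0.20. The members' median was -0.14 with quantile normalization, -0.52 with median scaling, -0.16 with the percentile of probes above background, -0.14 with the authors' table, -0.16 within slide 1 and -0.24 within slide 2, where calls have no test of their own and were not computed.

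Over all genes, 48 were called with median scaling, 37 without a filter, 587 when probes had to be above background on all 6 arrays, 63 with slide as a block and 812 with trend and robust fit, and 4 to 256 without 1 array. Higher genes made up 52.9% of the calls as reported, 12.5% with median scaling, 18.9% without a filter, 31.7% with slide as a block and between 0% and 52.6% without 1 array. Of the other replication, G1/S and mitosis genes, 1 was called with probes above background on all arrays and 4 with trend and robust fit, against 0 as reported, where 20 lower and 1 higher had an unadjusted limma p under 0.05.

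Whether the replicate numbers pair the samples is not told by the labels, and the reported fit did not pair them. Deviations of arrays with the same number correlated at 0.41, -0.49 and -0.21, and not every array correlated best with its own number. With 3 arrays per group, whose deviations are bound to sum to 0, this check cannot decide on pairing. With the replicate block limma called 0 of all genes and 0 members, while 13 of 43 members had an unadjusted p under 0.05, against 10.7% of all genes.

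Scalings that shift all genes alike also moved single members past 0. With median scaling, where the median of all genes was -0.32, Rrm1, Rpa1 and Ccne2 stood at -0.27, -0.32 and -0.13, each 0.32 below its reported value. Prim1 stood at 0.02 with the percentile of probes above background and at 0.05 with the authors' table, where the medians of all genes were 0.04 and 0.07. These turns follow the shift of all genes. Prim1 was 0.03 with quantile normalization and -0.10 to 0.05 without 1 array. Rpa1 was 0.00 with slide as a block, -0.02 with array weights and -0.04 to 0.03 without 1 array, and Rrm1 was -0.01 to 0.10 without 1 array; the cause of these was not tested. Each member was above background on all 6 arrays, so no member's value rests on a dim probe. The filter on dim probes of other genes still bore on the calls. The limma adjusted p of Orc1 was 0.223 without it and 0.0187 with probes above background on all 6 arrays.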

Other observations

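Further probes of the members give values not used above. Of 61 probes for the 43 members, 16 members had more than 1, and in 12 of these several passed the filter. The passing probes of a member had the same sign in 10 of the 12. The second probe of Rpa2 read 1.17, 1.31 and 1.20 in PBS and 1.0, 0.97 and 0.90 in Anakinra, a log2 difference of -0.27 with separate groups, whereas the brighter probe differed by -0.12 with overlapping groups. The second probe of Pold1 read 1.80, 1.71 and 1.79 against 1.51, 1.46 and 1.40, also separate, at -0.31 where the brighter probe gave -0.18. The second probe of Ccne2 read -0.04, 0.15 and 0.30 against 0.43, 0.12 and 0.55, again higher on average (0.23) and again overlapping. The exceptions in sign were Ccne1, whose second probe gave 0.02, and Mcm4, whose second probe was above background on 4 arrays only and gave 0.10.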
